A study of Rattus rattus with 23 samples.

Results

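Gene expression in the nasal respiratory epithelium of rats 6 h after the start of a hydrogen sulfide (H2S) exposure was set against that of air-exposed rats. The comparison holds 7 of the 23 arrays of the series, 1 array per animal: the 3 labelled as H2S at 6 h (animals 8, 9 and 10) and the 4 labelled as air at 24 h (animals 15, 16, 17 and 18). The exposed animals inhaled H2S at 200 ppm in a nose-only system for 3 h on 1 day, and the air animals inhaled air for the same time in the same way. All were male Sprague-Dawley rats, given as 60 days old in the sample labels and as 10 weeks old in the study's design text. Epithelium at the site of injury and regeneration was taken by laser capture, and its RNA went through an amplification with repeated rounds before hybridisation to Affymetrix Rat230_2 arrays. The labels name no transgene and no pooling of animals.

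No air group was sampled at 6 h. Exposure and the time of sampling, with the time of day that goes with it, therefore differ together and cannot be told apart. A second air group, sampled at 144 h after 3 h of air on each of 5 days (animals 19, 20, 21 and 22), shares no animal with the first, and its values stand beside the main ones. The exposed animals are the same in both comparisons. The labels do not say more of the source of the replicates than that each is an animal, and p-values measure the spread between these animals. The treatment label of animal 18 gives 5 repeat days although its title places it at 24 h, and the labels of the air animals repeat a concentration of 200 ppm.

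H2S blocks cytochrome c oxidase, the last enzyme of the mitochondrial respiratory chain, and cells clear it in mitochondria through sulfide quinone oxidoreductase (Sqor) and the enzymes that follow it. Inhaled H2S is known to injure the lining of the rodent nose. The respiratory epithelium of the nose is built from ciliated, secretory and basal cells, and basal cells rebuild it after injury. Cells under oxidative stress switch on genes of the transcription factor NRF2, such as Nqo1 and Hmox1, and an injured epithelium first shows immediate-early genes such as Atf3 and Fosl1.

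Levels below are log2 of the deposited signal plus 16, so that a level of 4 stands for no signal. Differences are exposed minus air on this scale, which makes differences of weakly measured genes look smaller than they are. Of the 7 arrays, that of animal 18 stood apart. Its Pearson correlation with the other 6 over the 19822 probe sets kept lay between 0.373 and 0.423, while the other pairs lay between 0.818 and 0.927. Its spike-in controls, which are added in fixed amounts, read 168 times the median array, and its RNA integrity number was 2.6. That number was 5.8 and 6.4 in exposed animals 8 and 10 and 4.2 and 5.1 in air animals 16 and 17. Animals 9 and 15 had none. All known numbers were thus higher in exposed than in 24 h air animals. Where leaving out animal 18 moved a difference or median printed here by more than 1.5 times, the value without it is given too. Among the exposed animals, 8 and 10 correlated at 0.914, whereas animal 9 correlated at 0.831 and 0.818 with them and at 0.886 with air animal 15. The array median differed between exposed and air animals by -0.28 on the log2 scale, less than the spread between animals (exact permutation test, 2-sided, p = 0.686, 3 against 4 animals), and by 0.0012 without animal 18 (exact p = 0.900). The smallest p that 3 against 4 allows is 0.0571. The ratio of 3' to 5' probe sets of Gapdh, a sign of RNA length, differed by 0.0851 on the log2 scale (exact p = 1), and by 0.681 without animal 18 (exact p = 0.600). That of beta-actin differed by 0.543 (exact p = 0.457), and by 0.344 without animal 18 (exact p = 0.700). The smallest p that 3 against 3 allows is 0.100.

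The captured tissue was checked against marker genes. Of 22 ciliated cell markers on the array, 18 exceeded the array's median on each of the 6 arrays other than that of animal 18, and so did 9 of 12 basal cell markers. Of 13 olfactory markers, 3 exceeded that median on all 6 of these arrays and 4 on none of them. Omp, the defining gene of mature olfactory neurons, was not above that median on any of the 3 exposed arrays and on 1 of the 4 air arrays, that of animal 18. Of 18 squamous markers, 2 were above it on all 6. Several genes of mineralised tissue had very high signals on every array. Of 8 bone genes on the array, 6 exceeded its median on all 7 arrays. Among these 6, the collagen genes Col1a1 and Col1a2 also served here as markers of stroma and vessel. Phospho1 lay at 6.43 to 7.96. Sost lay at 4.15 to 6.05 in exposed animals and exceeded the median only on the array of animal 18, at 9.34. Ibsp (bone sialoprotein) lay at 14.45, 14.61 and 14.79 in exposed animals and between 14.13 and 14.80 in air animals, and Bglap (osteocalcin) lay at 13.19 or above in all 7.

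Animals 8 and 10 also had high signals of several genes of odontoblasts, the cells that lay down dentin. Dspp, the gene of the main dentin phosphoprotein and the defining marker of these cells, lay at 15.38 in animal 8 and 15.30 in animal 10, but at 7.13 in animal 9. In air animals 15, 16, 17 and 18 it lay at 6.67, 4.71, 7.95 and 9.66. Of the other animals of the series, animals 12 and 13, taken 24 h after H2S, lay at 13.99 and 15.96, and no other exceeded 10.70. Nes, an intermediate filament of odontoblasts and progenitor cells, followed the same order, at 10.76 and 10.33 in animals 8 and 10, 7.31 in animal 9 and at most 7.43 in the air animals. Msx2, a homeobox gene of tooth and bone development, lay at 10.11 and 10.90 in animals 8 and 10, 6.87 in animal 9 and at most 7.46 in air. Phex, an endopeptidase of mineralising cells, lay at 12.32 and 12.64 in animals 8 and 10 and at 8.16 in animal 9, against 8.09 to 9.06 in air animals 15 to 17 and 11.22 in animal 18.

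The other 5 genes of the list set animals 8 and 10 apart by a small margin or not at all. Smpd3, a sphingomyelinase of bone and tooth, lay the other way, at 7.43 and 8.27 in animals 8 and 10 against 8.20 to 9.68 in air. Panx3, a channel protein of mineralising cells, lay at 9.14 and 9.12 in them, 9.20 in animal 9 and 7.20 to 9.43 in air. Dlx3, a homeobox gene, lay at 9.59 and 10.23 against 7.93 to 9.28, Dmp1, a matrix protein, at 15.07 and 14.92 against 13.26 to 14.33, and Gja1, connexin 43, at 15.81 and 15.38 against 13.34 to 15.21, all smaller margins than that of Dspp.

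This odontoblast list, put together after the data were seen, has 9 genes, all on the array, and 4 of them lay above the array median on all 7 arrays. Its summed signal was 144065 in animal 8 and 125699 in animal 10, against 41908 in animal 9 and 35821 to 59445 in the 4 air animals. The summed signal of 8 bone genes overlapped, at 170643 to 228098 in exposed and 123661 to 345764 in air animals. That of 2 enamel genes, Ambn and Amelx, was 3636 in animal 8, 1470 in animal 10 and 121 in animal 9, against 84 to 1295 in the 4 air animals. Animals 8 and 10 thus lay above these air animals in it too, but it reached 15606 in 144 h air. Amelx itself was close to no signal in animal 10, at 4.41. The sum of 4 osteoclast genes was 5999 to 15424 in exposed and 9454 to 19177 in air animals. The dentin signal thus separated 2 of the 3 exposed animals from the air animals and did not separate animal 9 from them. Values of animal 9 are therefore given beside those of animals 8 and 10.

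**Figure D1:**
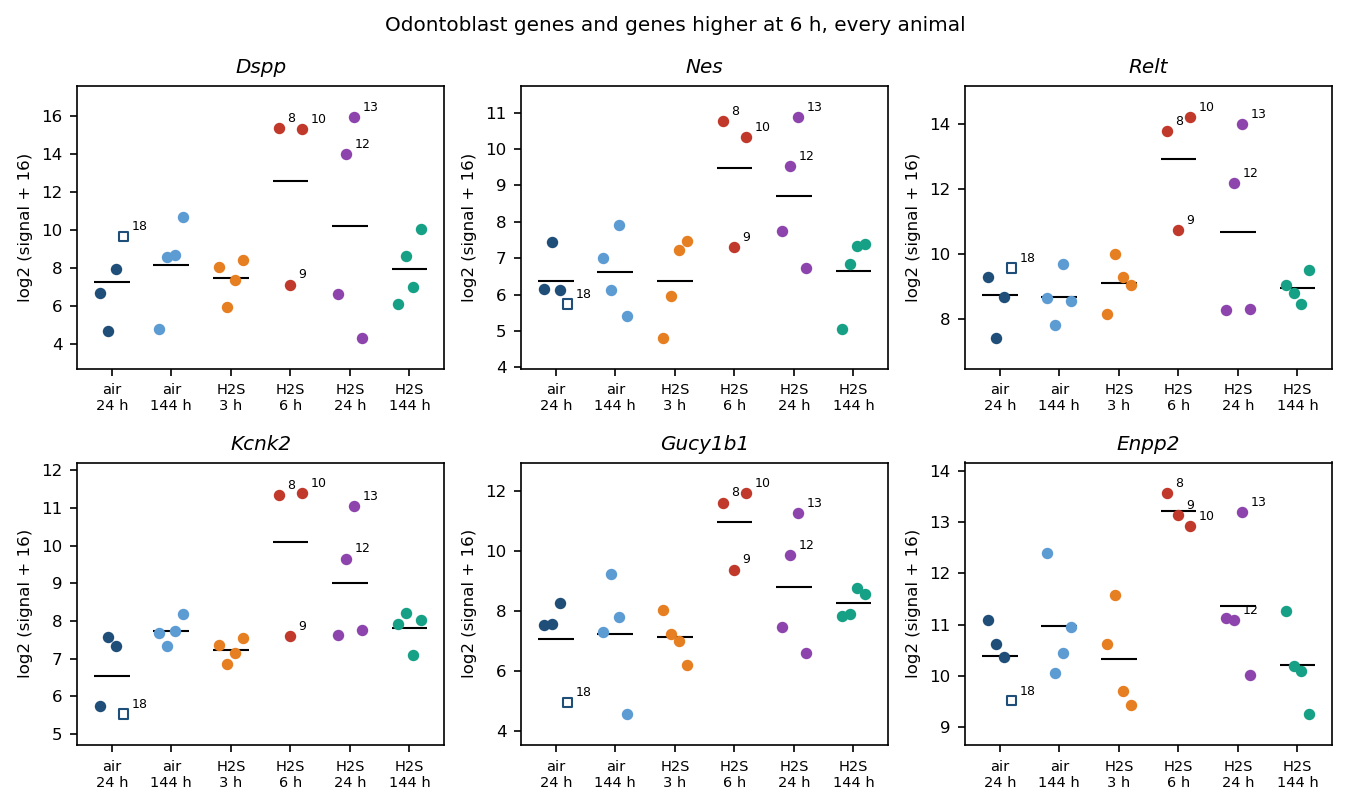
Level of the odontoblast genes Dspp and Nes and of 4 genes that were higher at 6 h, in every animal of the series, as log2 of signal plus 16. Each point is 1 animal, the open square is animal 18, and bars are group means. Animals 8 and 10 at 6 h and animals 12 and 13 at 24 h lie above the rest in Dspp, while in Enpp2 animal 9 lies with animals 8 and 10.

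By limma, a single probe set passed an adjusted p of 0.05 against 24 h air, of 19822 tested (0.00504%), and 1151 did so before adjustment. The one called measures Fam81a. Its level was 5.89, 5.04 and 6.34 in the exposed animals and 8.17, 10.53, 8.90 and 10.11 in the air animals. The exposed animals lay below all other 20 animals of the series on it, since the lowest level elsewhere was 7.82. The difference was -3.67 (SE 0.545, limma adjusted p = 0.0174). The exposed signals were low, with a mean level under 6, so its size depends on the pseudocount: it was -4.17 with a pseudocount of 1 and -2.85 with 64, when the adjusted p was 0.0670. Without animal 18 it was -3.45 with a limma adjusted p of 0.100, and against 144 h air it was -3.38 with an adjusted p of 0.0598. No probe set passed in either of these fits (0%), where 666 and 1341 had an unadjusted p under 0.05.

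The 2 other kept probe sets of Fam81a had brighter signals and gave smaller differences. The brightest lay at 9.26, 9.86 and 9.20 in exposed animals against 10.84, 13.07, 10.24 and 7.85 in air, a difference of -1.06 (SE 0.795, limma adjusted p = 0.782) that was -1.94 without animal 18. The next gave -1.60 (SE 0.934, limma adjusted p = 0.781), and -2.44 without animal 18. Against 144 h air they gave -1.34 and -0.27, the second of which was -1.22 without animal 22, whose array also had high spike-in controls. In both, animal 18 lay below all exposed animals, and animals 15, 16 and 17 lay above all of them. Without animal 18, therefore, all 3 probe sets of the gene were lower in every exposed animal.

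A looser view counts the genes whose 3 exposed and 4 air animals did not overlap, each gene read from its brightest kept probe set. Of 11249 genes, 282 were higher in every exposed animal (2.51%) and 212 were lower (1.88%). Without animal 18 the counts were 512 (4.55%) and 627 (5.57%). Against all 8 air animals of 24 h and 144 h, 71 genes were higher (0.631%) and 61 were lower (0.542%). Animal 18 was the lowest air animal for 198 of the 282 and the highest for 132 of the 212. None of these genes passed the limma threshold on this probe set, so their values are given as levels.

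Among the higher genes, 12 were taken by the smallest p. Relt, a receptor of the TNF receptor family, had the largest difference of the 12. It lay at 13.78, 10.74 and 14.21 in exposed animals and at 9.31, 7.44, 8.68 and 9.57 in air animals, a difference of 4.16 (SE 1.03, limma adjusted p = 0.781) that was 4.43 without animal 18 and 4.23 against 144 h air. All 3 exposed animals lay above all 8 air animals, and animal 9 was the nearest to them. Gucy1b1, a subunit of the nitric oxide receptor guanylate cyclase, lay at 11.60, 9.38 and 11.91 against 7.53, 7.55, 8.25 and 4.95, and its highest level in 144 h air was 9.22. Its other kept probe set gave 2.19, and there the groups overlapped through animal 18. Kcnk2, a potassium channel opened by stretch and lipids, lay at 11.36, 7.59 and 11.39 against 5.75, 7.57, 7.35 and 5.53. Animal 9 was thus level with air animal 16 in Kcnk2, and it lay within the 144 h air animals.

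Maob, a monoamine oxidase, had the smallest limma p of the 12 (difference 3.25, SE 0.592, adjusted p = 0.161). It lay at 10.49, 9.12 and 10.83 in exposed animals and at 7.086, 7.0001, 8.007 and 5.512 in air animals, and the difference was 2.78 without animal 18 and 1.97 against 144 h air. Air animal 22 of the 144 h group reached 9.16, so the groups overlapped there. Atp2b1, the plasma membrane calcium pump, lay at 13.85, 11.65 and 13.27 against 11.08, 10.88, 10.77 and 8.64, while air animal 22 of the 144 h group reached 12.59. Its 3 kept probe sets gave differences of 2.58, 1.95 and 1.68. In the last of these the groups overlapped, with animal 9 at 9.09 and air animals at 8.86 to 10.21. Slc20a2, a phosphate importer, lay at 12.26, 9.66 and 12.48 against 9.29 to 9.66, so that animal 9 equalled the highest air animal to 2 decimals.

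Enpp2 was the one of the 12 in which animal 9 lay between the other exposed animals. Enpp2, the enzyme that makes lysophosphatidic acid, lay at 13.56, 13.14 and 12.92 against 11.08, 10.61, 10.37 and 9.51, a difference of 2.81 (SE 0.668, limma adjusted p = 0.781), with 12.39 as the highest of the 144 h air animals. Rgs4, a brake on G protein signalling, lay at 11.26, 10.32 and 11.38 against 8.58, 8.18, 8.59 and 7.45, with 9.88 as the highest in 144 h air. S100a3, a calcium-binding protein, lay at 10.36, 9.52 and 11.02 against 8.21, 8.24, 7.78 and 5.64, and Hey1, a target of Notch signalling, at 12.78, 11.47 and 13.26 against 10.32 to 10.94. For Atp1b3, a subunit of the sodium pump, exposed animals lay at 11.04 to 12.36 and air animals at 8.59 to 10.65. Apba1, an adaptor protein, completes the 12, with exposed animals at 8.16 to 9.32 and air animals at 5.54 to 7.80.

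The place of animal 9 differed from gene to gene. Over all 282 higher genes, animal 9 was the exposed animal nearest to air in 116, animal 8 in 84 and animal 10 in 82, and over the 212 lower genes these counts were 89, 70 and 53. Measured against the 4 air animals, animal 9 alone gave differences from 0.220 (Slc20a2) to 2.74 (Enpp2) over the 12 higher genes, with a median of 1.65, while animals 8 and 10 gave 2.10 to 5.25 with a median of 3.17. For 6 of the 12, the difference in animal 9 was under 50% of that in animals 8 and 10. For the 12 lower genes described below, this held for 1, and the medians were -1.63 and -1.84. Both sets of 12 were chosen by p, and no test compared them. Without animal 9, limma called 11 probe sets, 8 higher and 3 lower. The higher ones included Kcnk2 (4.82, SE 0.725, adjusted p = 0.0163), Slc20a2 (2.93, adjusted p = 0.0163), Maob (3.76, adjusted p = 0.0415) and Hey1 (2.38, adjusted p = 0.0443), and Fam81a was among the lower. Another probe set of Dspp than the one given above was also among the higher, which restates how animals 8 and 10 were described. Without animals 8 and 10, where the single animal 9 is assumed to vary like the others, limma called 0, with 731 at an unadjusted p under 0.05.

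Animals 12 and 13, the 24 h animals with high Dspp, both lay above animals 11 and 14 in all of the 12 higher genes but Hey1, Enpp2 and Atp1b3. Animals 12 and 13 both lay above all 8 air animals in 31 of the 282 higher genes (10.99%) and in 245 of all 11249 (2.18%). Both lay below all 8 air animals in 12 of the 212 lower genes (5.66%) and in 115 of all 11249 (1.02%). The 282 and 212 genes were chosen by the place of the air animals of 24 h, which are among these 8. That choice raises both shares in advance, so they do not bear on the dentin signal. Relt lay at 12.17 and 13.997 in animals 12 and 13 and at 8.28 and 8.33 in animals 11 and 14 of the same group. Kcnk2 lay at 9.66 and 11.05 in animals 12 and 13, against 7.64 and 7.75. Gucy1b1 lay at 9.87 and 11.26, against 7.47 and 6.60, and Rgs4 at 10.16 and 11.78, against 7.95 and 7.96. Maob lay at 9.41 and 10.36, against 7.98 and 8.46, and Atp2b1 at 12.41 and 13.53, against 10.48 and 11.01. S100a3 lay at 9.82 and 8.20, against 7.57 and 7.45, and Apba1 at 8.74 and 8.62, against 7.97 and 7.35. For Slc20a2 the margin was small in animal 12, at 10.24 and 11.89 against 10.05 and 10.06. Hey1, Enpp2 and Atp1b3 did not set animals 12 and 13 apart from animals 11 and 14. Hey1 lay at 12.35 and 12.25, against 11.57 and 12.38. Enpp2 lay at 11.09 and 13.20, against 11.12 and 10.01, and Atp1b3 at 10.93 and 11.29, against 10.57 and 11.03. The part of the dentin signal in the differences at 6 h was not tested.

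**Figure D2:**
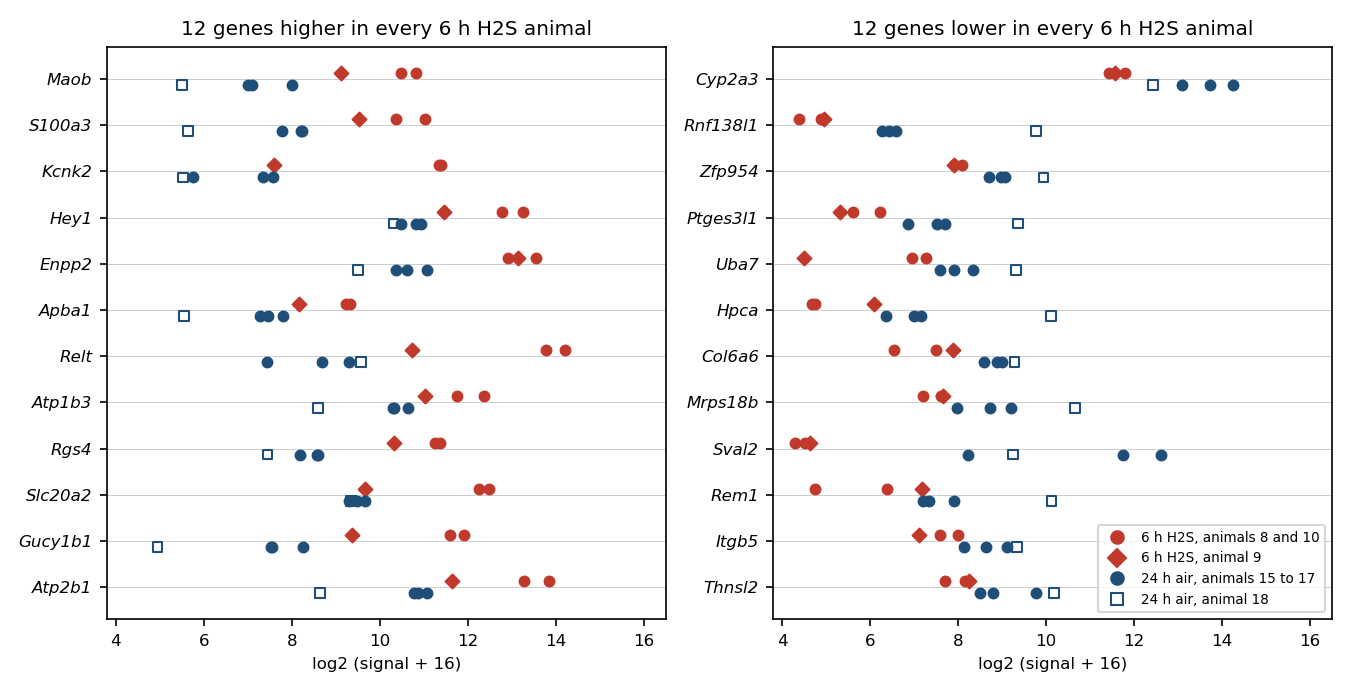
Level of the 12 genes that were higher and the 12 that were lower in every 6 h H2S animal, as log2 of signal plus 16, ordered by limma p. Each symbol is 1 animal, with animal 9 as a diamond and animal 18 as an open square. Animal 9 is the exposed animal nearest to air in most of the 12 higher genes shown, and animal 18 is the outermost air animal in many.

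Among the lower genes, Cyp2a3 had the smallest p. It is a cytochrome P450 of the rat nasal mucosa that breaks down inhaled compounds. It lay at 11.44, 11.57 and 11.80 in exposed animals and at 13.10, 14.25, 13.72 and 12.43 in air animals, a difference of -1.77 (SE 0.447, limma adjusted p = 0.781). The 3 exposed animals lay close together and below all 8 air animals, and the difference was -2.08 without animal 18 and also -2.08 against 144 h air. Animal 9 alone gave -1.80. The mean was 12.22 ± 0.70 (SD, n = 4) at 3 h and 13.08 ± 0.53 (n = 4) at 24 h after H2S. Cyp2a3 is also expressed in the olfactory mucosa. Of the 10 olfactory list members measured, it is the 1 whose groups did not overlap, against 1.88% of all genes lower. The level of that list, which is the mean log2 value of its genes minus the mean over all genes, was -1.37, -1.44 and -1.30 in exposed and -2.02, -1.21, -0.80 and 1.07 in air animals, so the groups overlapped.

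Sval2, a secreted protein gene, was at 4.52, 4.63 and 4.29 in exposed animals, close to no signal, and at 8.21, 11.75, 12.61 and 9.25 in air animals, a difference of -5.98 (SE 1.74, limma adjusted p = 0.781). Its size is set by the pseudocount, at -7.60 with 1 and -4.41 with 64. In 144 h air, however, 3 of the 4 animals lay at 4.26 to 4.58 and the other at 10.56, so that its level varied as widely among air animals. Uba7, the enzyme that starts attachment of the interferon-induced protein ISG15, lay at 7.27, 4.50 and 6.94 against 7.58 to 9.31, with animal 9 as the lowest. Itgb5, an integrin subunit, lay at 7.12 to 7.999 against 8.12 to 9.34. Other kept probe sets overlapped. For Itgb5 they gave -0.93 and 0.02 (-0.54 and -0.44 without animal 18), and for Uba7 -0.98 (-0.65 without animal 18). Col6a6, a collagen VI chain, lay at 6.53 to 7.88 against 8.58 to 9.28, and Mrps18b, a protein of the mitochondrial ribosome, at 7.20 to 7.66 against 7.98 to 10.65. Thnsl2 and the zinc finger gene Zfp954 lay at 7.70 to 8.25 and 7.89 to 8.10 in exposed animals. Of the 12, 5 lay below all 8 air animals: Cyp2a3, Ptges3l1, Hpca, Mrps18b and Thnsl2. Ptges3l1, Hpca and Rnf138l1 had exposed means under 6, a signal of 48, and Rem1 lay at 4.75 to 7.18. Without animal 18, Rnf138l1 and Hpca no longer passed the filter on low signals, and the other 10 had differences from -6.38 to -0.94.

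Atf3, a transcription factor induced by many stresses, lay within the range of the air animals at 6 h. It was at 8.45, 8.25 and 8.42 in exposed animals and at 8.84, 8.63, 8.13 and 7.88 in air animals. Its difference was 0.00 (SE 0.529), and -0.16 without animal 18, whereas its mean at 3 h was 11.75 ± 1.22 (SD, n = 4). Fosl1, a partner of Jun in the AP-1 factor, lay at 7.42, 7.56 and 7.20, above the air animals at 6.53, 5.04, 5.93 and 5.67 and below the 3 h mean of 9.21 ± 1.22. The 144 h air animals spanned 6.27 to 8.43, and the difference against them was 0.18, or 0.58 without animal 22. Hspa1a, the inducible HSP70 chaperone, lay at 10.47, 9.48 and 11.63 against 9.43 to 10.62 in air, compared with a 3 h mean of 12.82.

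Of the NRF2 and glutathione genes, 17 of the 22 listed were measured, none passed the limma test, and 13 had a positive difference. Over all 11249 genes 57.0% had one, the share to set beside such counts for every list, and 5342 of 11086 did without animal 18. The median of the 17 was 0.66, compared with 0.10 over all genes, and 0.69 without animal 18 compared with -0.02. For 3 of the 17, all exposed animals lay above the air animals, against 2.51% over all genes. Akr1b8, an aldo-keto reductase that detoxifies aldehydes, lay at 12.20, 11.63 and 13.31 against 9.20, 9.59, 10.47 and 10.20, a difference of 2.51 (SE 0.792, limma adjusted p = 0.781). Nqo1, a quinone reductase, lay at 12.44, 12.56 and 12.64 against 11.08, 11.72, 11.94 and 11.62, and Tkt, the transketolase of the pentose phosphate pathway, at 11.25, 11.64 and 11.85 against 10.46 to 11.18. In the 144 h air group, animal 22 was the one that overlapped the exposed animals in all 3 genes. Hmox1, heme oxygenase, lay at 9.51, 8.28 and 10.32 against 6.72, 7.63, 8.27 and 10.68; its difference was 1.04 with animal 18 and 1.83 without it. Gclc, the catalytic subunit of glutathione synthesis, gave -0.43 with animal 18 and -0.06 without it. The list level was 1.34, 0.50 and 1.54 in exposed animals and 0.18, 0.48, 0.60 and 1.02 in air animals, so animal 9 lay among the air animals.

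The other stress lists gave smaller or less even differences. In the heat shock list 7 of 11 measured genes had a positive difference (median 0.59, 0.36 without animal 18), with the mitochondrial chaperones Hspe1 at 12.68 to 13.53 against 11.80 to 12.90 and Hspd1 at 12.69 to 13.68 against 10.27 to 12.95, where animal 18 was the lowest. Of 20 unfolded protein and integrated stress genes, 13 were positive (median 0.26, 0.01 without animal 18), where 57.0% of all genes were. Ddit3, the stress factor CHOP, was the one whose groups did not overlap, where 2.51% of all genes were higher and 1.88% lower. It lay at 10.84, 10.63 and 10.17 against 9.61, 9.70, 9.52 and 6.75, and its difference of 1.65 was 0.94 without animal 18. The 20 immediate-early genes had a median of 0.06 (0.12 without animal 18), and the 8 p53 targets one of 0.36 (0.04 without animal 18), with the cell cycle inhibitor Cdkn1a at 10.21, 8.49 and 10.53 against 8.43 to 9.68 and the apoptosis gene Bbc3 at -0.51. Ribosome biogenesis genes had a median of 0.12 (0.05 without animal 18), with Mrto4 at 8.81 to 9.05 against 5.39 to 8.14, and 26 of 30 proteasome genes were positive with a median of 0.24 that was -0.03 without animal 18. Psmd1 at 1.20 (0.23 without animal 18) and Psmd8 at -1.57 had the smallest p of that list.

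**Figure D3:**
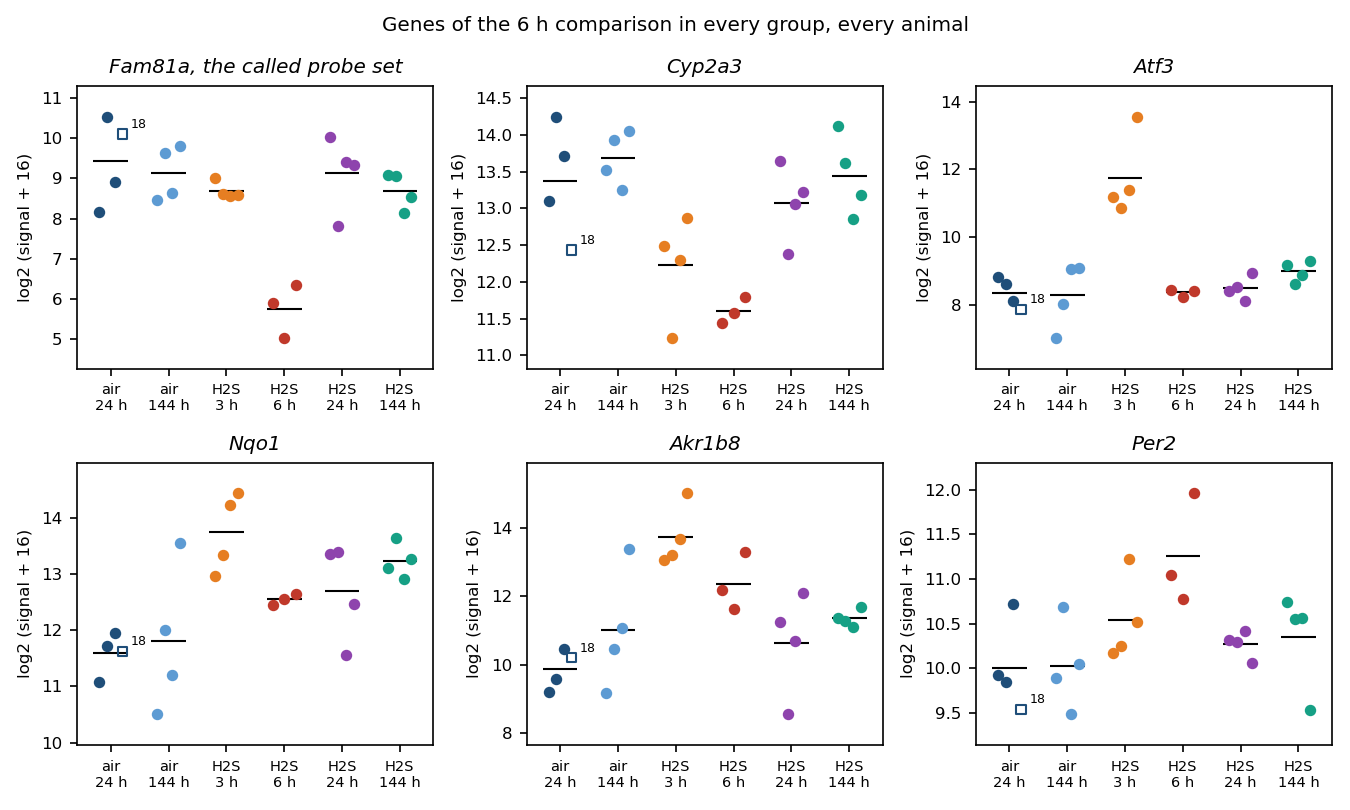
Level of 6 genes in every animal of the 6 groups, as log2 of signal plus 16. Each point is 1 animal, the open square is animal 18, and bars are group means. The called Fam81a probe set is low at 6 h only among these groups, Atf3 is high at 3 h and back at 8.38 at 6 h, and Cyp2a3 is lowest at 6 h by its mean of 11.60.

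Most genes of epithelial repair had higher values in exposed animals. Of 16 measured, 14 had a positive difference, with a median of 0.77 (0.54 without animal 18, 0.78 against 144 h air), and none passed the limma test. Anxa2, a membrane-binding protein of plasmin formation, lay at 13.90, 13.08 and 13.51 against 11.34, 11.24, 12.91 and 11.53, a difference of 1.74 (SE 0.540, limma adjusted p = 0.781). Its means were 13.78 ± 0.66 at 3 h and 13.67 ± 0.39 at 24 h (SD, n = 4 each). Timp1, an inhibitor of matrix proteases, lay at 9.65 to 10.11 against 9.04 to 9.58. Serpinb2, an inhibitor of plasminogen activators named here after its values were seen, lay at 10.41, 5.31 and 11.87 against 4.26, 4.25, 4.08 and 7.44, so that animals 8 and 10 were high and animal 9 was not. The list level was 1.12 and 0.99 in animals 8 and 10 and 0.04 in animal 9, against -0.31 to 0.22 in air.

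Of 11 basal cell genes measured, 7 had a positive difference with a median of 0.42, and 9 had one without animal 18, with a median of 0.86. Krt15, a keratin of basal cells, lay at 12.82, 13.26 and 14.51 against 11.37, 11.67, 12.70 and 11.87. Krt5 lay at 9.33, 8.67 and 10.11 against 7.95, 8.20 and 9.09 in animals 15 to 17 and 10.55 in animal 18. The squamous list had a median of 0.52 (0.81 without animal 18), and its level was highest in animal 10 (-0.32, against -2.07 and -2.69 in animals 8 and 9 and -2.75 to -0.67 in air). Tgm1, a cross-linking enzyme of cornified cells, lay at 9.65, 6.65 and 9.71 against 6.37 to 9.23, and Scel at 7.36, 6.81 and 9.98 against 5.97 to 7.497.

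Most ciliated cell genes had lower values in exposed animals. Of 21 measured, 19 had a negative difference and none passed the limma test; the median was -0.51 and was -0.54 without animal 18, when all 21 were negative. Against 144 h air the median was -1.09, and -0.57 without animal 22. Dnah2, a dynein heavy chain of the cilium, lay at 8.78, 9.67 and 7.83 against 9.70, 9.79, 10.18 and 11.29, and Efhc2, a protein of ciliary microtubules, at 6.68, 6.73 and 4.63 against 6.92 to 9.54. The list level was 0.41, 0.59 and -0.85 in exposed and 0.04, 0.87, 0.85 and 1.02 in air animals, so animal 10 was the lowest and air animal 15 lay among the exposed. Foxj1, the master factor of motile cilia, lay at 8.91, 9.55 and 8.20 against 9.01 to 9.59. Gmnc, which starts the multiciliated programme, lay at 5.68, 6.98 and 6.97 against 7.06, 8.16, 8.40 and 9.24, below all 8 air animals, a difference of -1.67 (SE 0.642, limma adjusted p = 0.781). In bulk tissue, fewer cells of a type and less RNA per cell cannot be told apart.

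Of 15 secretory genes, 7 had a positive difference, with a median of -0.12 (-0.19 without animal 18). Muc5ac, the main gel-forming mucin of goblet cells, lay at 4.32, 7.72 and 8.13 against 7.91, 9.02, 10.64 and 10.95, a difference of -2.90 (SE 1.18, limma adjusted p = 0.781), -2.46 without animal 18 and -3.42 against 144 h air. Animal 8 had next to no signal, and animal 10 lay above air animal 15. Muc4, a membrane mucin, lay at 9.29, 9.63 and 9.88 against 7.80 to 9.07. Nasal gland genes had a median of -0.95 over 6 genes, of which 1 was positive; Aqp5, a water channel of glands, lay at 11.12, 10.57 and 9.64 against 10.65 to 12.16, and the odorant-binding protein gene Obp1f at 15.83 to 16.46 against 15.75 to 19.92. Genes of ion and water transport had a median of -0.29 (-0.02 without animal 18), with Slc26a4, an anion exchanger, at 4.83 to 6.23 against 5.86 to 9.38.

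Genes of the body clock were measured because the time of sampling differed. Per2, a repressor of the clock, lay at 11.05, 10.78 and 11.96 in exposed animals and at 9.93, 9.85, 10.72 and 9.54 in air animals, above all 8 air animals with 10.69 as the highest at 144 h. Its difference was 1.25 (SE 0.399, limma adjusted p = 0.781) and 1.09 without animal 18. Cry1, its partner, lay at 10.39, 10.59 and 10.15 against 10.03, 9.25, 9.03 and 5.86, a difference of 1.84 that was 0.94 without animal 18. Nr1d1, the repressor of Bmal1, lay at 8.52, 8.77 and 7.60 against 8.59, 9.70, 9.66 and 10.13, a difference of -1.22. Dbp gave 0.42 with animal 18 and -0.02 without it. Per1 gave 0.41, and 1.38 without animal 18, which was highest for it at 9.24. Over 17 clock genes 13 were positive, with a median of 0.26 that was -0.01 without animal 18, when 8 were positive.

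Glucocorticoid-responsive genes, which also follow the time of day, had 2 of 10 measured members higher in every exposed animal, against 2.51% over all genes. Without animal 18 the count was again 2, against 4.55%. Named here after its values were seen, Hsd11b2, which inactivates glucocorticoids, was then lower in every exposed animal, as were 5.57% of all genes. Sgk1, a kinase that raises sodium uptake, lay at 10.59, 9.82 and 12.12 against 9.10, 8.98, 9.34 and 8.78, a difference of 1.79 (SE 0.613, limma adjusted p = 0.781), and it lay above all 8 air animals. Fkbp5, a cochaperone of the glucocorticoid receptor, lay at 10.27, 10.68 and 9.72 against 9.35, 9.50, 9.03 and 5.45, and its other probe set gave 2.26. The difference of 1.89 was 0.93 without animal 18 and 0.64 against 144 h air. There animals 19 and 20, at 10.18 and 9.87, lay above exposed animal 10, and the other probe set also overlapped. The median of the 10 genes was 0.51 and was 0.09 without animal 18. Exposure and time of sampling cannot be told apart for the clock and glucocorticoid genes.

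No gene that handles sulfide passed the limma test. Sqor, the first enzyme of sulfide oxidation, lay at 10.06, 10.01 and 10.07 in exposed animals and at 9.16, 10.06, 10.19 and 6.96 in air animals, a difference of 0.96 with animal 18 and 0.25 without it. Suox, sulfite oxidase, lay at 6.499, 5.88 and 7.28 against 6.92 to 9.70. Of 6 genes measured, 5 had a negative difference, with a median of -0.53. Cytochrome c oxidase subunits had a median of -0.18 over 12. Cox6a1 was the 1 of them lower in every exposed animal, against 1.88% over all genes. It lay at 10.73, 11.16 and 10.59 against 11.20 to 11.30, with 10.83 and 10.85 in 144 h air animals 19 and 20. Genes of glycolysis and hypoxia had a median of 0.53 that was 0.12 without animal 18, with Ndrg1 at 12.57, 11.08 and 11.14 against 11.18, 10.73, 11.01 and 5.95, and Pgk1, a glycolytic kinase, at 12.999 to 13.98 against 10.59 to 13.28. Xenobiotic enzymes had a median of -0.39 (-0.10 without animal 18), and Fmo2, a flavin monooxygenase, lay at 11.78 to 12.20 against 9.95 to 11.75.

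Immune genes differed among the exposed animals themselves. The leukocyte list level was 1.23 in animal 9 and -0.66 and -1.02 in animals 8 and 10, and among air animals it was 0.95 in animal 15 and -0.73 to -0.13 in the others. S100a8, a neutrophil protein, lay at 8.95, 7.85 and 7.32 against 7.18, 5.25, 6.67 and 6.49, while the median of the 19 leukocyte genes was 0.06 and was -0.35 without animal 18. Interferon genes had 12 of 17 positive with a median of 0.55, and without animal 18 all 16 that then passed the filter were positive, with a median of 0.33. Rsad2, an antiviral enzyme, lay at 8.51, 9.57 and 10.65 against 8.46, 8.76, 7.99 and 5.07, and Irf7 at 8.50 to 9.85 against 6.08 to 8.88. Cytokine genes had a median of 0.10, and 0.54 without animal 18. Il1b lay at 8.60 to 9.21 against 7.72 to 9.33, and Il1a, which had low signals, at 4.31 to 5.79 against 5.86 to 9.11.

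No gene of cell division passed the limma test. Mki67, a marker of cycling cells, gave a difference of -0.16, and -0.75 without animal 18. It lay at 8.15, 9.96 and 8.62 against 10.37, 9.39, 9.23 and 7.29, and its mean 24 h after H2S was 11.13. Of 19 mitosis genes 5 were positive, with a median of -0.17 (-0.47 without animal 18), Birc5 at -1.67 (-0.95 without animal 18) and Ube2c at -0.95. DNA replication genes had a median of 0.46 over 18 (0.25 without animal 18), with the licensing factor Cdt1 at 8.85 to 9.15 and Mcm7 at 10.32 to 11.43 in exposed animals. Markers of stroma and vessel overlapped in level (1.79 to 2.39 against 1.63 to 2.00), with smooth muscle myosin Myh11 highest in animal 9 at 12.28 and Dcn at 11.91 to 12.14 against 7.78 to 12.18. The list level of the 2 blood markers measured was -0.49, -0.85 and -0.40 in exposed and -1.47, -1.88 and -0.86 in air animals 15 to 17, so the groups overlapped only through animal 18, at -0.75. Their part in the other results was not tested. The heme enzyme Alas2 lay at 7.06 to 7.60 against 5.13 to 7.49 and Hbb at 9.84 to 10.37 against 8.86 to 10.92. In the cartilage and bone list Spp1, osteopontin, lay at 11.53 to 11.83 against 12.27 to 13.04, and Col2a1, the collagen of cartilage, at 7.33, 9.26 and 7.09 against 5.30 to 6.93, with up to 13.44 in 144 h air.

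**Figure D4:**
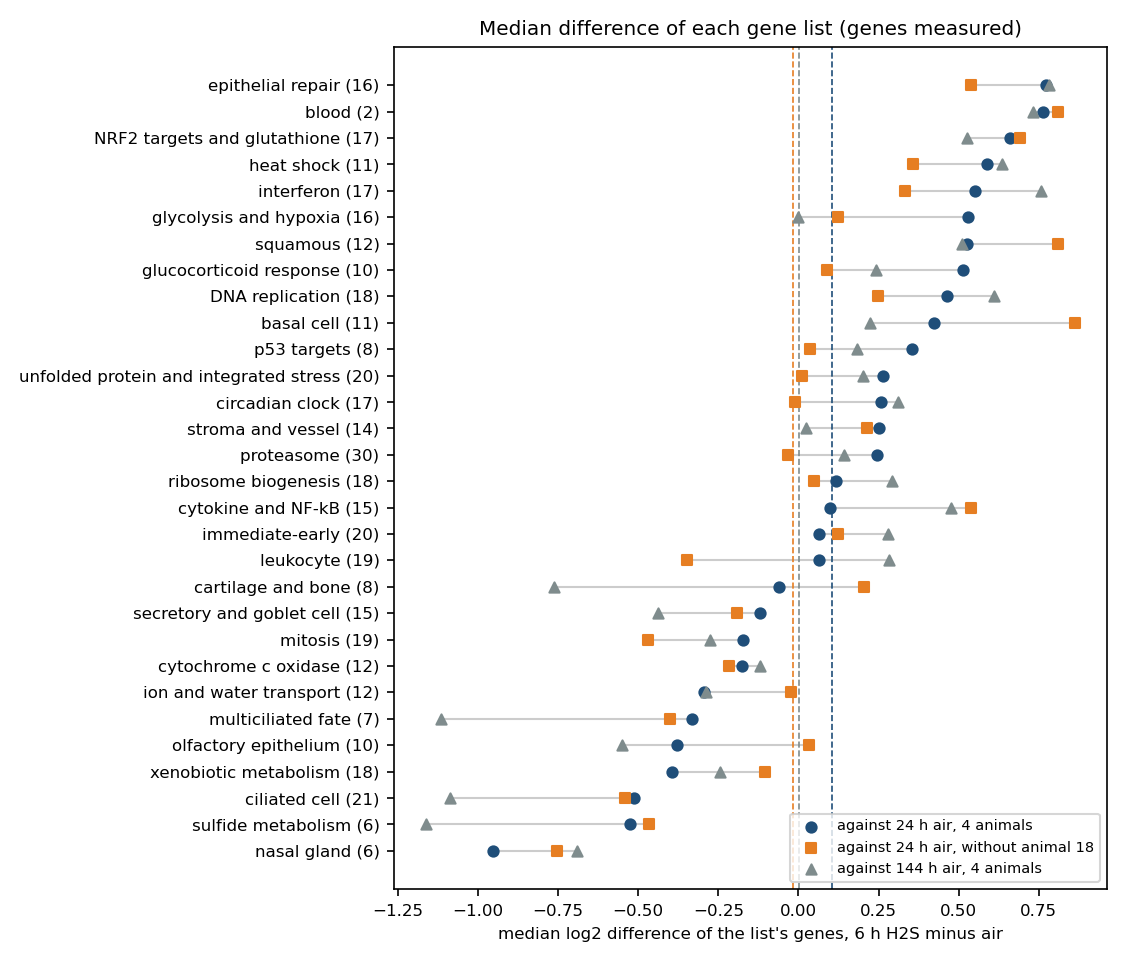
Median difference of each of 30 gene lists, exposed at 6 h minus air on the log2 scale, with the number of genes measured in brackets. Circles use all 4 air animals of 24 h, squares leave out animal 18, triangles use the 4 air animals of 144 h, and dashed lines give the median over all genes for each. Repair and NRF2 lists lie right of all 3 lines, as do others, among them heat shock, interferon, blood, squamous, basal cell and DNA replication. Ciliated cell, sulfide and nasal gland lists lie left of them, as do others, among them mitosis and cytochrome c oxidase.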

How the data were processed

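Signals of 31099 probe sets on 23 Affymetrix Rat230_2 arrays were deposited by the authors as intensity on a linear scale, made with GCOS 1.0 per the submitters' processing notes. The software's settings were not known here. The mean over each array, leaving out 2% at each end, was 500, which shows a scaling of each array. From the deposited intensities, log2(signal + 16) was taken here, with no further normalization. Low signals are compressed by this, and amplification of laser-captured RNA adds to the spread between animals. The number of arrays limits the precision.

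Of all probe sets, 19822 whose signal exceeded the array's median on 3 or more arrays were analysed, and 57 control probe sets were left out. By GEO's platform annotation, 1 gene symbol belonged to 20832 probe sets, several to 436 and none to 9831. Each of 11249 genes was represented by the strongest analysed probe set that carried its symbol alone.

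A linear model with 1 mean for each of 6 groups over all 23 arrays was fitted by limma 3.58.1 (R 4.3.3), and p-values were adjusted by Benjamini-Hochberg over the probe sets analysed. The fit was also run on simulated arrays with independent noise and changes of known size. They held no deviating array and no difference in tissue, so that run does not bear on these. Array measures were compared by exact permutation in scipy 1.17.1. No labels pair animals.

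Named genes were those past the threshold, the 12 non-overlapping genes in each direction with the smallest p, up to 4 non-overlapping members of each of 30 lists (otherwise the 2 with the smallest p), and 16 genes given in any case. The members and lists were chosen with earlier results of these data known, and the lists of mineralised tissue genes were added after the data were seen. No genome positions or sequences were used here.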

Additional observations from a re-analysis of the deposited data

Results flagged for a closer look

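In the group of 4 air animals of 24 h, 119 levels and array measures were checked for an animal far from the others by Dixon's criterion (a gap that fills most of the group's range), which chance meets in about 1 of 20 groups. It was met by 11, of which 10 were animal 18. Animal 18 was far below the other air animals for Atp1b3 (8.59), Atp2b1 (8.64), Hspd1 (10.27), Ddit3 (6.75), Ndrg1 (5.95), Psmd1 (5.98) and Fkbp5 (5.45). It was far above them for Rnf138l1 (9.77), Birc5 (9.90) and Per1 (9.24). For the mitosis list, air animal 15 was highest with a level of -0.64.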

How the results depend on the processing

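The count of 1 probe set called by limma against 24 h air became 0 with a pseudocount of 64, with only the 2 groups compared, without animals 18 and 22, without animals 6, 14 and 18 (whose treatment labels give 5 repeat days), on those arrays whose RNA integrity was given, and without animals 8 and 10, an alternative chosen after seeing the data. With RNA integrity as a covariate it was 29, and with array weights 68. The covariate fit leaves out animals 9 and 15, which had no integrity number, so its exposed animals were 8 and 10. Its calls included Dspp, Nes, Msx2 and Relt. Those with array weights included Cyp2a3, Maob, Relt and Enpp2, and also Dspp and Nes. Leaving out each of the 7 animals in turn gave 0 to 11. It was 0 without animal 8, 16 or 18 and 11 without animal 9. Against 144 h air the count of 0 became 1 with a pseudocount of 1, with a filter at the 75th percentile, with the trend and robust options and without animals 8 and 10, 2 without animals 18 and 22, 5 with array weights and 30 with the integrity covariate. Leaving out single animals gave 0 to 8 there, with 8 without animal 9. The cause was not tested.

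Genes higher in every exposed animal numbered 282, and 512 without animal 18, while genes lower in every exposed animal numbered 212, and 627 without animal 18 or 137 with median centring. Fewer air animals make it easier not to overlap. Median centring gave 347 higher and 137 lower, a share of 71.7% higher against 57.1% in the main setting, and its median over all genes was 0.36 instead of 0.10. With median centring the medians of the mitosis, cytochrome c oxidase and secretory lists were 0.08, 0.08 and 0.14, above 0 but below that of all genes. The called probe set of Fam81a was lower in exposed animals under every alternative run. No paired analysis was possible because the groups share no replicate number. Only 3 exposed animals were measured, 2 of them with the dentin signal, and without an air group at 6 h exposure and time of sampling cannot be told apart.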
